A study of Homo sapiens with 12 samples.

Results

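The transcriptomes of 2 lines that carry gain-of-function (GOF) forms of EZH2 were compared directly, 3 libraries of the line labelled EZH2 Y641F against 3 of the line labelled EZH2 A677G. These 6 samples, grouped by their labels, come from lines made in parallel. Both are HEK293T cells, a human embryonic kidney line transformed by viral genes, that were infected with lentivirus and selected with blasticidin, and each carries 1 EZH2 point mutant. The series holds 12 RNA samples in all, the others being 3 of a line with wild-type EZH2 (EZH2 WT) and 3 of the loss-of-function line EZH2 H689A/F667I, made in the same way. Cells were grown in DMEM with serum and, apart from the infection and the blasticidin selection, received no drug or other treatment. The comparison asks whether the mutations, both of which raise the trimethylation of histone H3 at lysine 27, leave different transcriptomes. Each line is a single infected and selected population, so the mutation and the history of a line cannot be told apart, and the endogenous EZH2 gene was still present.

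EZH2 is the catalytic subunit of Polycomb repressive complex 2 (PRC2), which adds methyl groups to lysine 27 of histone H3. The trimethylated mark, H3K27me3, is bound by the other Polycomb complex, PRC1, and is found at silent developmental genes. Both mutations lie in the catalytic SET domain and recur in lymphoma. The Y641F enzyme works best on histone tails that already carry the second methyl group and poorly on unmodified ones, while the A677G enzyme acts on all states. The mutated codons are shown in the reference transcript to fix what separates the lines, with the codon in capitals in each window of 27 bases, written 5′ to 3′ on the coding strand.
EZH2 codon Y641F: ttcatctcagaaTACtgtggagagatt
EZH2 codon A677G: tttgtggtggatGCAacccgcaagggt
The tyrosine codon of Y641F lies in exon 16 at chr7:148811634-148811636 and the alanine codon of A677G in exon 18 at chr7:148809374-148809376, both on the minus strand of GRCh38 and in the coding sequence of GENCODE transcript ENST00000460911.5, which encodes 746 residues. The first window crosses an exon junction. The sequences are those of the reference, and the introduced copies were not read here.

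Counts per library summed to between 36794751 and 44562413 in the 6 libraries. The first of the EZH2 Y641F libraries stood apart from the rest. On the first principal component of the 6 libraries, which held 26.0% of the variance, it scored 24.4 while the other 5 lay between -8.01 and -2.55, and its quality weight in limma voom was 0.444, the lowest of the 12. The biological coefficient of variation was 0.0653 within EZH2 Y641F (0.0529 without replicate 1) and 0.0366 within EZH2 A677G. Distances between libraries, the root mean square difference of log2 CPM (counts scaled to library size and by TMM) over all genes tested, show how close the lines are. Between a library of EZH2 Y641F and one of EZH2 A677G they ran from 0.262 to 0.309 (median 0.281 over 9 pairs), a range that overlaps the 0.278 to 0.309 among the EZH2 Y641F libraries and the 0.258 to 0.278 among those of EZH2 A677G. To EZH2 WT the medians were 0.358 for EZH2 Y641F and 0.353 for EZH2 A677G. Replicate 1 of EZH2 Y641F was nearer to EZH2 WT, at 0.317 to 0.331, than its replicates 2 and 3, at 0.358 to 0.368. On the first principal component of all 12 libraries it scored 5.60. The other GOF libraries scored 15.2 to 17.7 there and those of EZH2 WT -15.0 to -13.8. The cause was not tested. The p-values below rest on the spread between the 3 samples of a line, pooled over all lines in 1 fit of the 12 libraries. The common coefficient of variation of that fit was 0.0471, below the value within EZH2 Y641F and above that within EZH2 A677G. Counting intervals of a single library are not given.

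**Figure D1:**
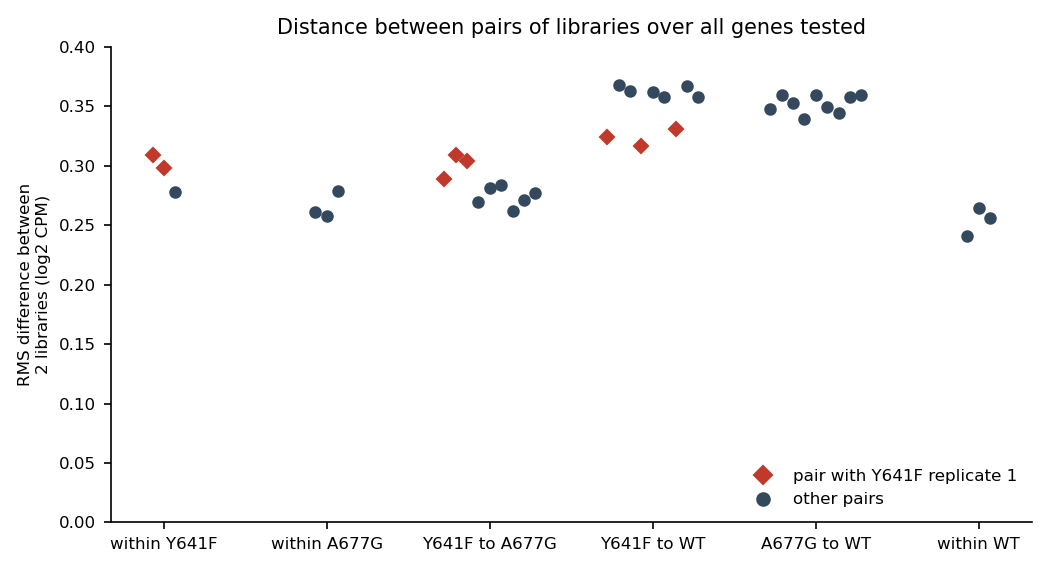
Root mean square difference in log2 CPM over all genes tested (vertical axis) for pairs of libraries within and between lines, 1 point per pair, with pairs that include EZH2 Y641F replicate 1 as red diamonds. Pairs of EZH2 Y641F and EZH2 A677G libraries lie between 0.262 and 0.309, in the range of the replicates. Pairs of an EZH2 WT library with one of either GOF line lie at or above 0.317, and pairs within EZH2 WT between 0.241 and 0.264.

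Of 14438 genes, 175 were at 0 in all 3 libraries of some line and were left out, which leaves 14263. Of these 175, 134 were at 0 in all 3 EZH2 A677G libraries, and no gene was at 0 in all 3 EZH2 Y641F libraries. Such zeros were not particular to EZH2 A677G: 100 genes were at 0 in all 3 EZH2 H689A/F667I libraries, 59 of them among the 134. The 134 genes were low in EZH2 Y641F too, with summed counts of 27 to 98 over its libraries (median 55.5). DPEP1, a membrane dipeptidase of the kidney, had 27, 37 and 34 reads in EZH2 Y641F and 10, 8 and 4 in EZH2 WT. It had 0 in each library of EZH2 A677G and of EZH2 H689A/F667I. PAX2, a transcription factor of the developing kidney, had 25, 16 and 20 reads in EZH2 Y641F and 15, 12 and 16 in EZH2 WT. It had 13, 18 and 14 in EZH2 H689A/F667I and 0 in each EZH2 A677G library. No gene of the table was at 0 in exactly 2 libraries of a line, and the smallest summed count of a tested gene was 10 in either GOF line, so these zeros differ from those of low genes in general. Whether they come from the cells or from the making of the table was not tested.

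Between the lines, 12 genes differed in edgeR's quasi-likelihood fit, at a Benjamini-Hochberg adjusted p under 0.05, which is 0.0841% of the genes tested. Of these, 10 were higher in EZH2 Y641F (EZH2, NEFM, NELL2, GNG4, EMILIN2, POLR2A, L3MBTL4, MIR17HG and the ribosomal RNAs RNA45S5 and RNA28S5) and 2 were lower (FAT3 and CYFIP2), 0.0701% and 0.014% of the genes tested. In the same fit, 1095 genes (7.68%) differed between EZH2 Y641F and EZH2 WT and 1219 (8.55%) between EZH2 A677G and EZH2 WT. Without adjustment, 985 genes (6.91%) had a p under 0.05, 527 higher (3.69%) and 458 lower (3.21%) in EZH2 Y641F. At 1453 genes (10.2%) the 3 libraries of one line all lay above the 3 of the other, among them all 12 called genes. EZH2 Y641F was the upper line at 5.33% of genes and the lower at 4.86%.

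A low number of calls does not show that the lines are alike, so the interval of each difference was computed as well. The median 95% half-width was 0.14 on the log2 scale. At 13450 genes (94.3%) the whole interval lay within a 2-fold change in either direction, and at 11296 (79.2%) it lay within 0.5 log2 units. Precision fell with expression: above a mean log2 CPM of 6, 99.9% of genes were held within 0.5 units, but only 1 of the 1158 genes with a mean log2 CPM of 0 or less. The log2 fold changes ran from -1.54 to 1.69, with the 5th percentile at -0.19 and the 95th at 0.31. A fold change of more than 2 was estimated at 22 genes, 13 higher and 9 lower, all with a mean log2 CPM of 0.761 or less, and 1 of them (L3MBTL4) passed the test.

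**Figure D2:**
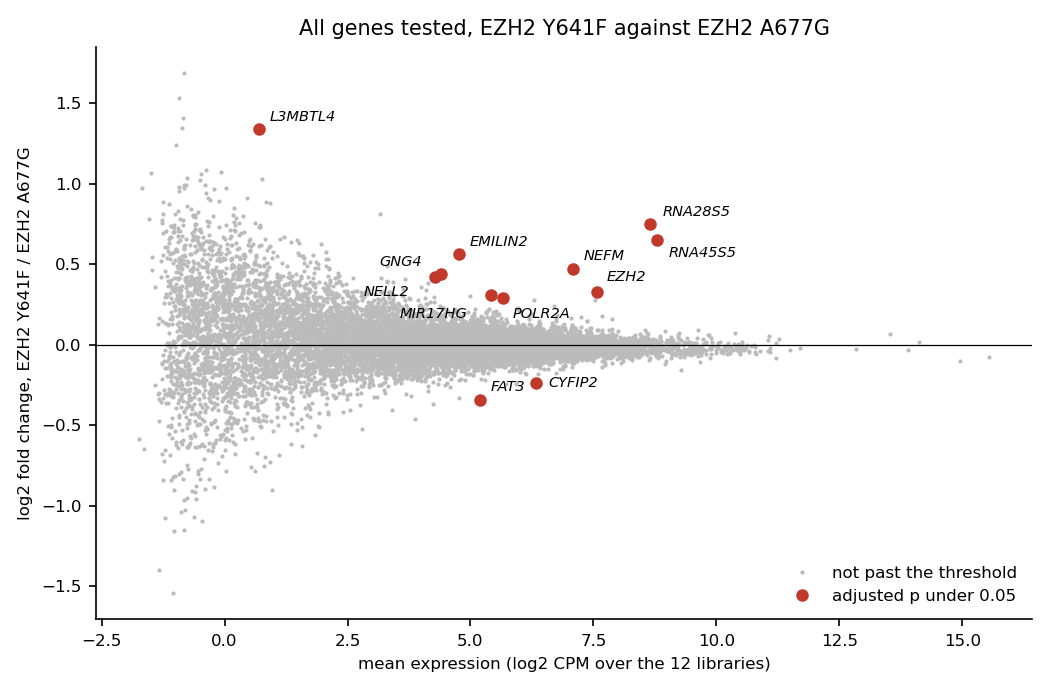
Log2 fold change of EZH2 Y641F over EZH2 A677G (vertical axis) against the mean log2 CPM over the 12 libraries (horizontal axis) for the 14263 genes tested, with the 12 called genes in red. Apart from the low gene L3MBTL4, the called genes lie between -0.34 and 0.75, and the grey cloud narrows to the right.

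EZH2 itself was the gene with the smallest p. Its level was 228, 209 and 217 CPM in EZH2 Y641F and 174, 165 and 182 in EZH2 A677G, which do not overlap. EZH2 WT had 157, 163 and 154 CPM and EZH2 H689A/F667I 208, 210 and 206. The fold change was 1.26 (log2 0.33, standard error, SE, 0.0396, edgeR adjusted p = 9.34e-06). The count holds introduced and endogenous transcripts together, so it does not give the level of the mutant enzyme. The lines therefore differ in the amount of EZH2 RNA as well as in the codon, and the part of that amount in the other differences was not tested.

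The other subunits of PRC2 showed no such gap. Of 6 core genes EZH2 was the 1 called, and of 8 accessory genes 0 were. SUZ12, the scaffold of the complex, had 63.5, 60.01 and 68.5 CPM in EZH2 Y641F and 59.3, 63.3 and 59.3 in EZH2 A677G, with overlapping libraries and a 95% interval of the log2 fold change from -0.02 to 0.18. For EED, which binds the trimethylated mark and stimulates the enzyme, the interval ran from -0.15 to 0.07. EZH1, the paralog of EZH2, had an interval from -0.04 to 0.30. The accessory subunits MTF2, JARID2, AEBP2, PHF19, PHF1, LCOR, LCORL and C17orf96 had log2 fold changes between -0.07 and 0.13. Among 24 PRC1 subunits and readers 0 were called, 16 of them on the lower side in EZH2 Y641F and 8 on the upper, and the median log2 fold change was -0.05 against 0.00 over all genes. At 4 of them (16.7%) all EZH2 Y641F libraries were below those of EZH2 A677G, against 4.86% of all genes, and without replicate 3 of EZH2 Y641F the median was -0.03.

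NEFM encodes the medium neurofilament chain, a neuronal intermediate filament that HEK293 cells also express. It had 143, 107 and 128 CPM in EZH2 Y641F and 99.2, 81.2 and 92.6 in EZH2 A677G, a log2 fold change of 0.47 (SE 0.0638, edgeR adjusted p = 4.75e-05). All EZH2 Y641F libraries were above those of EZH2 A677G, and both sets were below EZH2 WT with 184, 192 and 178. NEFM was called under 25 of 26 alternatives, the exception being the robust quasi-likelihood fit (adjusted p = 0.386). Its partner NEFL, the light chain, had 83.8, 75.6 and 77.5 CPM against 74.7, 68.6 and 76.1, which overlap, with a log2 fold change of 0.11 and an adjusted p of 0.653. NELL2, a secreted glycoprotein of neurons, had 20.3, 17.2 and 17.001 CPM in EZH2 Y641F and 12.5, 13.5 and 14.8 in EZH2 A677G. The libraries do not overlap, and the log2 fold change was 0.42 (SE 0.0827, adjusted p = 0.0174).

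FAT3, a giant cadherin that shapes neurons, ran the other way. It had 27.8, 25.8 and 25.8 CPM in EZH2 Y641F and 34.4, 32.4 and 33.7 in EZH2 A677G, with a log2 fold change of -0.34 (SE 0.0569, edgeR adjusted p = 0.00193). EZH2 Y641F was thus lowest at FAT3, and EZH2 WT highest with 45.8, 44.9 and 42.6. Of the 9 giant cadherin genes tested, FAT3 was the 1 called. The other gene lower in EZH2 Y641F was CYFIP2, part of the WAVE complex that controls actin branching. It had 72.8, 78.8 and 73.6 CPM in EZH2 Y641F and 83.4, 92.3 and 90.2 in EZH2 A677G (log2 fold change -0.24, SE 0.0487, adjusted p = 0.0255). The libraries of the lines lie close together there without overlap.

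EMILIN2, a glycoprotein of the elastic extracellular matrix, was highest in EZH2 Y641F. It had 39.96, 35.8 and 35.0 CPM in EZH2 Y641F against 27.9, 22.8 and 24.3 in EZH2 A677G, 21.3, 25.7 and 23.8 in EZH2 WT and 21.9, 24.0 and 22.1 in EZH2 H689A/F667I. The log2 fold change between the GOF lines was 0.56 (SE 0.0732, edgeR adjusted p = 2.95e-05), and all libraries of EZH2 Y641F were above all others. GNG4, a gamma subunit of heterotrimeric G proteins, had 26.9, 22.5 and 23.9 CPM in EZH2 Y641F and 16.5, 17.5 and 20.2 in EZH2 A677G. The libraries do not overlap, with a log2 fold change of 0.44 (SE 0.0769, adjusted p = 0.00311).

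The remaining called genes belong to transcription and to noncoding RNA. POLR2A, the largest subunit of RNA polymerase II, had 58.2, 53.7 and 55.3 CPM in EZH2 Y641F and 41.1, 48.7 and 46.9 in EZH2 A677G, with EZH2 WT between them at 50.4, 49.0 and 50.9 (log2 fold change 0.29, SE 0.0545, edgeR adjusted p = 0.00755). L3MBTL4, of a family of proteins that bind methylated lysines, was low, with 1.85, 1.39 and 1.37 CPM against 0.718, 0.393 and 0.713. Its log2 fold change of 1.34 had the widest error of the called genes (SE 0.285, adjusted p = 0.0444). MIR17HG, the host transcript of the miR-17-92 microRNA cluster, had 47.8, 45.9 and 47.5 CPM in EZH2 Y641F and 39.5, 37.9 and 36.7 in EZH2 A677G, with little spread in either line (log2 fold change 0.31, SE 0.0525, adjusted p = 0.00219).

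RNA45S5 is the precursor of ribosomal RNA and RNA28S5 its large mature product. Libraries were made with an mRNA kit, and these repeated genes have near-identical copies, so their counts are uncertain. RNA45S5 had 503, 656 and 494 CPM in EZH2 Y641F and 352, 365 and 338 in EZH2 A677G, and RNA28S5 had 444, 761 and 523 against 356, 334 and 337. The libraries do not overlap, but replicate 2 of EZH2 Y641F was far above its fellows at both. The log2 fold changes were 0.65 and 0.75 (standard errors 0.0903 and 0.126, adjusted p = 6.48e-05 and 0.00193). DESeq2 and the robust fit did not call them.

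**Figure D3:**
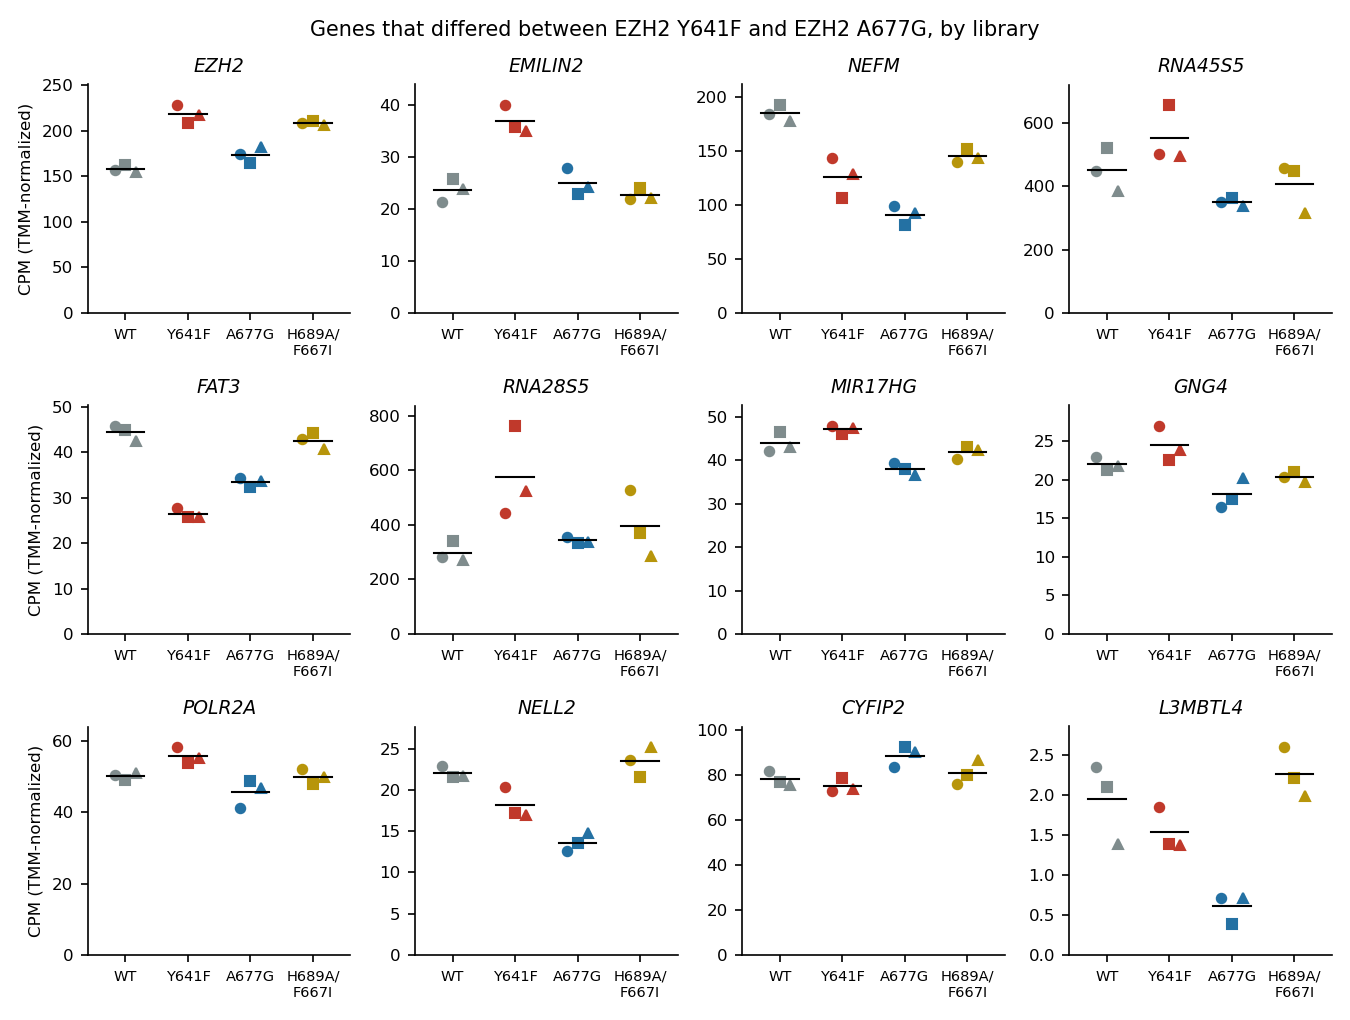
TMM-normalized CPM (vertical axes, from 0) of the 12 genes that differed between EZH2 Y641F and EZH2 A677G in each library of the 4 lines, with circles, squares and triangles for replicates 1, 2 and 3 and a bar at each line's mean. EZH2 Y641F and EZH2 A677G do not overlap in any panel, and at NEFM, NELL2 and FAT3 both lie below EZH2 WT.

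Set beside EZH2 WT, the 12 genes fell into different patterns. These comparisons share the EZH2 WT libraries, so each line's own values are given. NEFM was lower than in EZH2 WT in both GOF lines, by -0.55 in EZH2 Y641F and -1.02 in EZH2 A677G on the log2 scale, as was NELL2 (-0.28 and -0.70), both with adjusted p under 0.05 in each line. FAT3 was also lower in both, with -0.75 in EZH2 Y641F and -0.41 in EZH2 A677G. EZH2 was higher in both, with 0.46 and 0.13. At 6 genes 1 of the lines passed the test against EZH2 WT. EMILIN2 had 0.65 in EZH2 Y641F (adjusted p = 8.18e-08) and 0.08 in EZH2 A677G (adjusted p = 0.5997), and RNA28S5 had 0.95 and 0.20. L3MBTL4 had -0.34 in EZH2 Y641F (adjusted p = 0.501) and -1.68 in EZH2 A677G (adjusted p = 5.93e-05), while MIR17HG had 0.10 and -0.21, GNG4 0.15 and -0.28, and CYFIP2 -0.06 and 0.18, with EZH2 A677G the line past the threshold. RNA45S5 moved in opposite directions, 0.29 and -0.36, each past the threshold. At POLR2A neither line passed it, with 0.15 and -0.14.

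Because replicate 1 of EZH2 Y641F stood apart, the comparison was repeated without each library. Without replicate 1 of EZH2 Y641F 10 genes were called, 7 of them shared with the 12. EZH2, EMILIN2, NEFM, FAT3, MIR17HG and both ribosomal RNAs remained, while GNG4, POLR2A, NELL2, CYFIP2 and L3MBTL4 did not, and BASP1, LGR5 and FSTL1 came in. The log2 fold changes of those no longer called were then 0.36, 0.26, 0.33, -0.22 and 1.18. Without replicate 2 of EZH2 Y641F 57 genes were called, all 12 among them, 29 higher and 28 lower, and without replicate 3 there were 21. With an EZH2 A677G library left out there were between 8 and 10. EZH2, EMILIN2, FAT3 and MIR17HG were called under each of the 26 alternatives that retest single genes. L3MBTL4 was called under 13 of them and CYFIP2 under 19. Fold changes of the 12 genes kept their sign throughout.

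**Figure D4:**
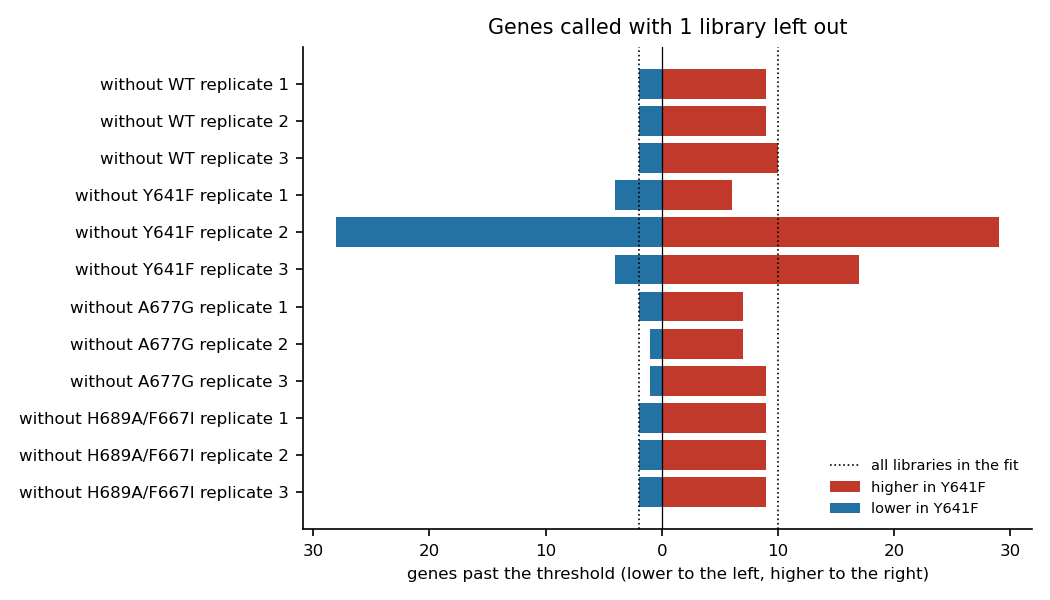
Number of genes past the threshold between EZH2 Y641F and EZH2 A677G when 1 library is left out (horizontal axis, genes higher in EZH2 Y641F to the right and lower to the left), with dotted lines at the 10 and 2 genes called with all libraries. Leaving out EZH2 Y641F replicate 2 gives 29 higher and 28 lower genes, and leaving out other libraries gives between 8 and 21 in all.

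Just past the threshold on the other side was BASP1, a membrane-bound protein that also acts as a transcriptional corepressor. It had 16.5, 14.3 and 12.96 CPM in EZH2 Y641F and 19.7, 17.8 and 19.0 in EZH2 A677G, which do not overlap, and its log2 fold change was -0.37 (SE 0.0806, edgeR adjusted p = 0.0579). Its adjusted p ran from 0.00295 to 0.381 over 26 alternatives, and 11 of them called it. Like values were found at LGR5, a receptor of the WNT pathway, with 5.18, 3.62 and 3.97 CPM against 6.93, 5.82 and 5.65. Its log2 fold change was -0.53 and its adjusted p 0.152. Genes with the opposite sign included NPTX1, a neuronal pentraxin, at 80.6, 71.3 and 71.9 CPM against 64.3, 61.0 and 68.5, and ERBB4, a receptor tyrosine kinase, at 9.46, 9.11 and 9.51 against 6.64, 7.30 and 7.18. Neither overlaps, and the adjusted p were 0.128 and 0.156. The uncalled genes named here were picked partly for libraries that do not overlap, so the lack of overlap is no finding. Of the retinoic acid pathway, ALDH1A2, which makes the acid, and CYP26A1, which breaks it down, had log2 fold changes of 0.23 and 0.39 with adjusted p of 0.141 and 0.156. That of ALDH1A2 was 0.14 without replicate 1 of EZH2 Y641F, with an adjusted p of 0.823.

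Targets of the tumour suppressor p53 were among these uncalled genes. CDKN1A, the inhibitor of cyclin-dependent kinases known as p21, had 23.2, 30.6 and 28.3 CPM in EZH2 Y641F and 33.4, 32.9 and 37.0 in EZH2 A677G, with 24.9, 21.9 and 19.1 in EZH2 WT. PHLDA3, a repressor of AKT signalling, had 10.4, 16.3 and 14.8 against 18.7, 17.5 and 20.7. SESN2, a stress-induced regulator of growth signalling, had 51.1, 60.8 and 58.0 against 66.1, 62.8 and 72.3. At all of them the libraries do not overlap, which was part of the rule that picked them, and replicate 1 of EZH2 Y641F was the lowest of the 6. The log2 fold changes were -0.33, -0.46 and -0.24, and the adjusted p 0.141, 0.0741 and 0.0766. TP53I3, a p53-induced oxidoreductase, had the opposite sign, with 5.28, 4.46 and 5.18 CPM against 3.72, 3.66 and 3.24, a log2 fold change of 0.49 and an adjusted p of 0.392. Without replicate 1 of EZH2 Y641F the log2 fold changes of CDKN1A, PHLDA3 and SESN2 were -0.22, -0.29 and -0.18, with adjusted p of 0.733, 0.495 and 0.506. Without replicate 2 they were -0.42, -0.59 and -0.30, with adjusted p of 0.01604, 0.00670 and 0.0131. Over the whole list of CDK inhibitors and p53 targets, 0 of 29 genes were called, 22 were lower and 7 higher, and 7 (24.1%) had all EZH2 Y641F libraries below those of EZH2 A677G, against 4.86% of all genes. The median log2 fold change was -0.07, and -0.04 without replicate 1 of EZH2 Y641F.

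HOX genes, the developmental regulators that Polycomb complexes classically silence, leaned the same way. Of 36 tested, 0 were called, 29 had a negative and 7 a positive log2 fold change, and 7 (19.4%) had all EZH2 Y641F libraries below those of EZH2 A677G, against 4.86% of all genes. The leading one was HOXA5, with 44.5, 53.6 and 52.1 CPM in EZH2 Y641F and 56.9, 60.01 and 60.7 in EZH2 A677G (log2 fold change -0.24, adjusted p = 0.0743 in the edgeR fit). EZH2 WT had 54.0, 53.5 and 54.9. HOXA10 followed with a log2 fold change of -0.14 and an adjusted p of 0.568. The median over the list was -0.09, but -0.04 without replicate 3 of EZH2 A677G and -0.06 without replicate 1 of EZH2 Y641F. The level of the list was 0.12 in that EZH2 A677G library against 0.03 and 0.02 in the others.

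The list medians by library show which of these differences rest on a single library. For collagen chains, structural proteins of the matrix, 22 of 30 genes were higher in EZH2 Y641F and 0 were called, with a median log2 fold change of 0.14. The level of the list, relative to each gene's mean over the 12 libraries, was 0.23 in replicate 1 of EZH2 Y641F but -0.20 and -0.14 in its replicates 2 and 3, and -0.23, -0.19 and -0.17 in EZH2 A677G. Without replicate 1 the median was -0.03, and without replicate 2 of EZH2 A677G 0.09. COL3A1, a fibrillar chain, had 11.6 CPM in replicate 1 and 7.49 and 7.42 in the others, against 7.11, 6.41 and 6.39 in EZH2 A677G. Integrins, the receptors of the matrix, were alike, with levels of 0.12, -0.06 and -0.14 in EZH2 Y641F and -0.12, -0.08 and -0.17 in EZH2 A677G. Of 10 markers of fibroblasts 6 were in the tests, of which COL1A1 and COL3A1 are also collagen chains, and the defining marker DCN was not among them. Their median level was 0.43 in replicate 1 of EZH2 Y641F and between -0.20 and 0.08 in the other 5 libraries. LUM, COL1A1 and COL3A1 were highest in that replicate. The other markers were not: PDGFRA had 2.45 CPM there and 2.78 in EZH2 A677G replicate 1. PDGFRB had 0.428 and S100A4 0.785 there, against 0.494 and 0.823 in EZH2 A677G replicate 3. The part of the fibroblast markers in the collagen values was not tested.

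**Figure D5:**
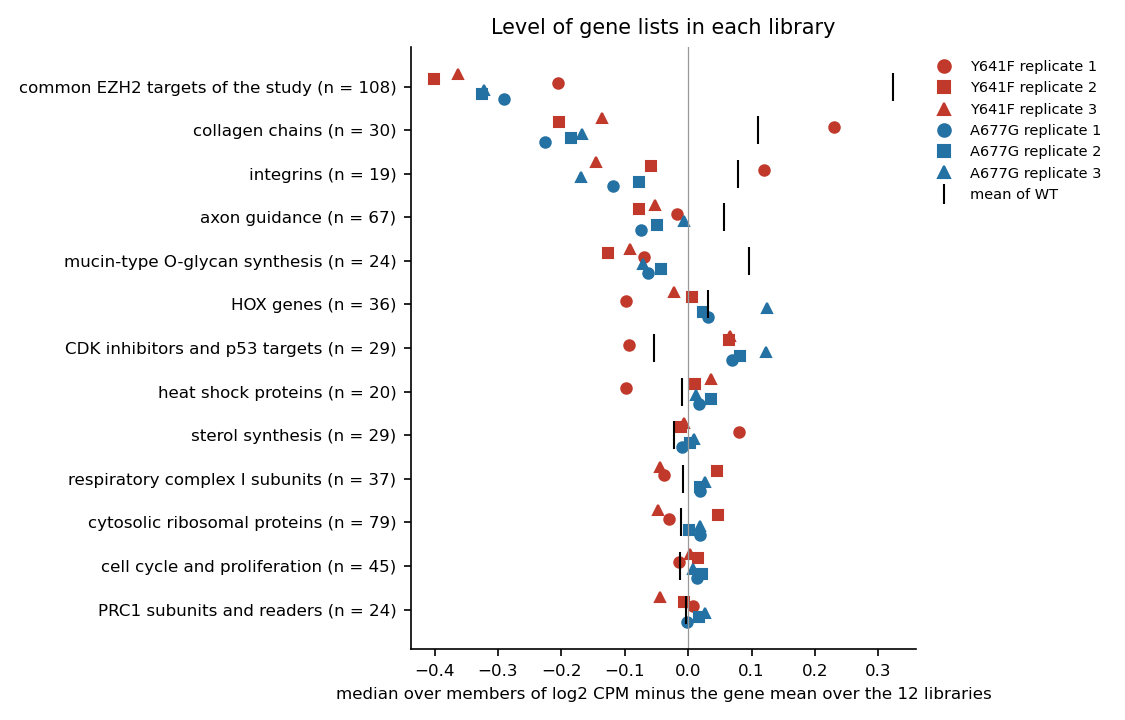
Level of 13 gene lists in each of the 6 libraries, as the median over members of log2 CPM minus the gene's mean over the 12 libraries (horizontal axis), with EZH2 Y641F in red, EZH2 A677G in blue, symbols for replicates and a black tick at the mean of EZH2 WT. EZH2 Y641F replicate 1 lies apart for collagens (0.23), integrins, p53 targets and heat shock proteins, while for the common EZH2 targets all 6 libraries lie well left of EZH2 WT.

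The genes that the study names as common targets of the EZH2 GOF mutants were compared next. The study chose this list of 108 partly on these samples, as genes with lower transcript levels in both lines than in EZH2 WT. By its definition they also had less accessible chromatin and more of the trimethylated mark in its other assays. Because the transcripts entered the choice, the distance of the list from EZH2 WT is no finding. The choice also leaves out genes that were lower in 1 line alone, so it favours genes at which the lines are alike, and the values below are a description. All 108 were tested and 1, FAT3, was called, where 0.0841% of all genes were. The list divided about evenly, with 57 of the 108 above 0 and 51 below, and the median log2 fold change was 0.01. At 97 of the 108 the 95% interval lay within a 2-fold change and at 73 within 0.5 log2 units, lower shares than the 94.3% and 79.2% over all genes. The libraries of the lines do not overlap at 11 of the 108 (10.2%), the same share as over all genes (10.2%). The level of the list was -0.21, -0.40 and -0.36 in EZH2 Y641F and -0.29, -0.32 and -0.32 in EZH2 A677G, so that replicate 1 of EZH2 Y641F was the highest and its replicate 2 the lowest. Without replicate 1 the median was -0.05, and without replicate 2 it was 0.07.

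Single targets are given by library. EGFR, the receptor of epidermal growth factor, had 5.68, 4.15 and 4.8001 CPM in EZH2 Y641F and 5.21, 4.72 and 4.85 in EZH2 A677G, with an interval of the log2 fold change from -0.27 to 0.25. ACADL, an enzyme of fatty acid oxidation, had 3.26, 2.73 and 2.91 against 3.10, 3.15 and 2.77, with an interval from -0.35 to 0.31. In both genes the libraries overlap fully. Low targets left more room. COL4A4, a chain of basement membrane collagen, had 0.571, 0.945 and 0.969 CPM against 0.538, 0.762 and 0.384, with an interval from -0.10 to 1.19, and for WNT16, a secreted ligand, it ran from -1.37 to 0.98. GNG2, a G protein gamma subunit, was among the least alike, with 4.28, 2.31 and 3.12 CPM against 2.24, 1.77 and 2.30, a log2 fold change of 0.63 and an adjusted p of 0.328. Without replicate 1 of EZH2 Y641F it was 0.37.

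Lists that the study names by line were described as well. The study drew them in part on these same RNA libraries, so the counts below are no independent test. Its accounts give changed transcripts and proteins of each line, while the values below set the RNA of the lines against each other. They therefore do not test what the study reports of either line. Of 36 genes whose transcript or protein it names in both GOF lines, NEFM and FAT3 were called (0.0841% over all genes). At 33 the interval lay within a 2-fold change (94.3% over all genes). Of 16 genes named in its account of EZH2 Y641F, of which ZMYM2 also stands among the 36, 0 were called. At 15 the interval lay within 0.5 log2 units (79.2% over all genes). BASP1, above, was the exception and came nearest to the threshold. PTK2, the focal adhesion kinase, had a log2 fold change of -0.01 (interval -0.09 to 0.08) and GPC3, a glypican, one of 0.02 (interval -0.10 to 0.13). Of 9 genes named in its account of EZH2 A677G, of which WRN also stands among the 36, 0 were called and all 9 had an interval within 0.5 log2 units. ZNF711, a zinc finger factor, led with 92.2, 85.3 and 89.7 CPM in EZH2 Y641F and 99.6, 98.98 and 97.7 in EZH2 A677G, which do not overlap (log2 fold change -0.15, adjusted p = 0.274 in the quasi-likelihood fit of edgeR).

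Lists of housekeeping genes and of stress responses had medians close to 0. Of 79 cytosolic ribosomal protein genes 63 were lower in EZH2 Y641F with a median log2 fold change of -0.03, and 0 were called, the smallest p being that of RPS15 (580, 611 and 567 CPM against 640, 645 and 673, adjusted p = 0.0743). Of 37 subunits of respiratory complex I 29 were lower, also with a median of -0.03. For both lists replicate 2 of EZH2 Y641F lay above all EZH2 A677G libraries and replicates 1 and 3 below them. With 1 library left out, the medians ran from -0.05 to -0.01 for the ribosomal proteins and from -0.05 to -0.02 for complex I. Of 29 genes of sterol synthesis 24 were higher with a median of 0.03, and of 0.01 without replicate 1 of EZH2 Y641F, the library in which their level was highest (0.08, against -0.01 to 0.01 in the other 5). Among 45 genes of the cell cycle the log2 fold changes stayed between -0.08 and 0.10 and 0 were called, and among 49 of glycolysis and the TCA cycle between -0.14 and 0.10. Heat shock proteins, with DNAJB1 at 115, 123 and 116 CPM against 131, 131 and 131, had 0 calls over 20 genes and a median of -0.03, which turned to 0.02 without replicate 1 of EZH2 Y641F. The 35 genes of the ATF4 stress response and serine synthesis had a median of 0.00 and 0 calls but a wider range, from -0.36 to 0.67. Of the 37 lists with a tested member, 32 held 0 called genes, where 0.0841% of all genes were called.

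As for identity, the tested HEK293T markers were present at like levels, with 16 of 18 tested and their summed CPM between 776 and 842 over the 6 libraries, and NEFM was the 1 called. PAX2, also on this list, was among the genes left out, at 0 in each EZH2 A677G library and with 16 to 25 reads in those of EZH2 Y641F. Of 12 blood markers 2 were tested and of 7 endothelial markers 1, all at low levels. By chromosome, over genes with a mean log2 CPM above 1, the median log2 fold change lay between -0.03 and 0.01. Chromosome 19 was the lowest, with 31.6% of 816 genes above 0 against 48.4% over all, and held 0 called genes. Relative to each gene's mean over the 12 libraries, its median was -0.011, 0.030 and -0.031 in EZH2 Y641F. In EZH2 A677G it was 0.027, 0.019 and 0.048, so the libraries of the lines overlap there. Of the 12 called genes, 10 had a known position, on 9 chromosomes.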

How the data were processed

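RNA was sequenced from HEK293T lines, 3 biological replicates each, with a stranded mRNA kit. The submitters' processing notes name Trim Galore 0.6.5, STAR 2.7.9a, Salmon 1.2.0 and edgeR 3.16 with GRCh38, and the table that the authors deposited holds counts for each gene symbol, whole numbers with no scaling. The step from Salmon to counts per symbol is not given in the sources used here. Genes at 0 in all 3 replicates of any line were left out, and the other 14263 all passed filterByExpr. Counts of the 12 libraries were fitted together in R 4.3.3 with edgeR 4.0.16 (TMM, quasi-likelihood test, 1 coefficient per line), in place of the exact test of the study, which was run as an alternative. P-values were adjusted by Benjamini-Hochberg over all genes tested, with a threshold of 0.05. CPM were scaled by TMM factors, with a prior count of 2 on the log2 scale. Intervals are 95% intervals of the log2 fold change. Positions and codons are from GENCODE on GRCh38, where 13272 symbols matched by name, 810 by a synonym and 356 not at all.

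The genes named are EZH2 and other PRC2 subunits, all genes past the threshold, genes nearest to it in each direction with libraries that do not overlap, and, for each gene list, members with the smallest p or named by the study. The comparison and the lists were chosen with earlier results of these data known. Lists are described by counts and medians. The scripts recovered known changes put into simulated counts. Those counts were drawn with the spread of the fit and with no library standing apart, so they check the scripts alone. Alternatives used limma 3.58.1 and DESeq2 1.42.0.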

Additional observations from a re-analysis of the deposited data

How the results depend on the processing

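Against the 12 calls, edgeR's exact test gave 23, a required absolute log2 fold change of at least 1 gave 1, and keeping the genes at 0 gave 178, of which 134 were genes at 0 in EZH2 A677G. Leaving out 1 library gave 8 to 57, with 57 without EZH2 Y641F replicate 2 and 21 without its replicate 3. DESeq2 gave 18, library totals 10, the 6 libraries alone 9, limma voom with quality weights 11, the robust fit 12 (7 higher, 5 lower), thinned counts 13 and removal of the GC trend 14. The robust fit shared 9 of its calls with the main fit and lost NEFM, RNA28S5 and RNA45S5. With the replicate number as a block there were 16 calls, and 23 with the block in the 6 libraries alone. The labels give the numbers no shared origin. Deviations of same-numbered libraries correlated at -0.01 to 0.03, and those of other pairs at -0.04 to 0.03. Replicates 1 and 2 of EZH2 Y641F correlated best with the EZH2 A677G library of their own number, and replicate 3 did not. Values this small over all genes cannot decide whether the numbers pair the samples. The first principal component held 33.7% of the variance over 12 libraries, 46.5% with the 500 most variable genes, 21.7% with unit variance and 26.0% in the 6 libraries. INSIG1, of sterol synthesis, had a log2 fold change of 0.17, which ran from -0.017 without EZH2 Y641F replicate 1 to 0.260 without its replicate 3. EZH2 stayed between 0.29 and 0.37, past the threshold under each of the 26 alternatives that retest single genes. It does not reach the required log2 fold change of 1. The number of genes held within a 2-fold change stayed between 13092 and 13450. Genes under a mean log2 CPM of 0 are limited by depth. The cause of these shifts was not tested.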
